A study of Mus musculus with 36 samples.

Results

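FGF receptors and the transcripts that FGF signalling is known to switch on were followed through dissected regions of the mouse embryo from the headfold stage to the end of axis elongation. Members were all probes of the deposited, non-normalized intensity table whose gene symbol was Fgfr1, Fgfr2, Dusp6, Spry1, Spry2, Spry4, Spred1, Etv4, Etv5 or Il17rd. Of these 10 genes, 9 had a probe and 8 were tested, among 30869 symbols with a probe and 15556 genes tested. Spry1 had no probe under that symbol, and the Spry2 probe (ILMN_2749464) was detected on 0 of 36 arrays, so neither has values here.

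The study profiled 16 regions with Illumina MouseWG-6 arrays, to compare the progenitors that build the body axis with their neighbours and over time. All embryos were of the outbred MF1 strain, with no transgene or treatment named in the labels. Each array held RNA from a pool of 6 to 74 dissected pieces, with 3 arrays for 4 regions and 2 arrays for 12. The headfold stage, E7.5, gave an anterior piece (A), a posterior piece (P) and the proximal part of the posterior side (PP). At E8.5 (2-5 somites) they were rostral node (RN), node-streak border (NSB), caudal lateral epiblast (CLE), rostral streak (St1) and the caudal end of the streak (St5). The tail bud gave the chordoneural hinge (CNH) at E9.5 (22-25 somites), E10.5 (32-35), E11.5 (40-45), E12.5 (50-55) and E13.5 (60-63). Tissue lying behind the hinge (P-CNH) was taken at E9.5, E10.5 and E11.5. The regions with 3 arrays were NSB, CLE, E11.5 CNH and E7.5 A.

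FGF ligands bind receptor tyrosine kinases, among them Fgfr1 and Fgfr2, and activate the Ras, Raf, MEK and ERK cascade. ERK signalling raises transcription of its own inhibitors and of the ETS factors Etv4 and Etv5, so these transcripts are widely used as readouts of the pathway. In the primitive streak and tail bud, FGF signalling through Fgfr1 is needed for mesoderm to form and for the axis to keep growing.

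Values are log2 intensities after background correction and quantile normalization, so a difference of 1 is a doubling. A probe counted as detected on an array when the detection p-value in the deposited table was under 0.01, and was tested when detected on at least 1 array. Differences, standard errors (SE) and p-values come from limma, fitted on 21712 probes with region and batch as terms and adjusted over all of them by Benjamini-Hochberg. Calls required a fold of 1.5 or more together with an adjusted p no greater than 0.05. A gene stands by its brightest tested probe. These p-values measure the spread between pools, and the small number of arrays limits the precision. The 36 arrays fell into 3 batches of 12. Batch 1 held RN, St1, St5, both E10.5 regions and NSB replicates 1 and 2, and only NSB replicate 3 (batch 3) ties it to the others.

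Some arrays stood apart. E13.5 CNH replicate 2 had 10814 detected probes, CLE replicate 1 had 11062, E11.5 P-CNH replicate 1 had 12280 and CLE replicate 2 had 12289, the fewest of the 36. They are called the 4 sparse arrays here; they were chosen by detected probes, and other arrays, such as E13.5 CNH replicate 1 (2.64), had a lower signal over background than E11.5 P-CNH replicate 1 (5.36). The highest count was 16256. NSB replicate 3, which ties batch 1 to the others, had 13147 detected probes. Its signal over background was 2.89, against 9.26 and 8.85 in NSB replicates 1 and 2. Fitted differences between batch 1 regions and the others carry the error of that array. Correlation between replicates over the tested probes was lowest for E13.5 CNH (0.858) and E11.5 P-CNH (0.859), against 0.997 for E9.5 CNH. Median detection also differed by batch, with 15875 probes in batch 1, 13803.5 in batch 2 and 14697 in batch 3.

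Markers differed as the labels say between A and P, RN and St1, St5 and St1, and E9.5 CNH and NSB. Other regions are not covered here. Summed intensity of 5 streak genes, brightest of them T, was 2300, 2530 and 1480 in E7.5 A and 15500 and 16600 in P, with 5 of 5 called higher in P. Wnt3a and Mixl1 were undetected in A. Of 4 node and notochord genes, 3 were lower in St1 than in RN, and their sums were 4300 and 5480 in RN against 369 and 402 in St1. Caudal streak genes, led by Bmp4, summed to 7060 and 8720 in St5 and to 517 and 493 in St1, with 3 of 3 called. Of 4 tail bud genes, 3 were tested and 3 were higher in E9.5 CNH (21100 and 22600) than in NSB (410, 498 and 682), where Hoxc10 and Hoxd10 were undetected.

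**Figure D1:**
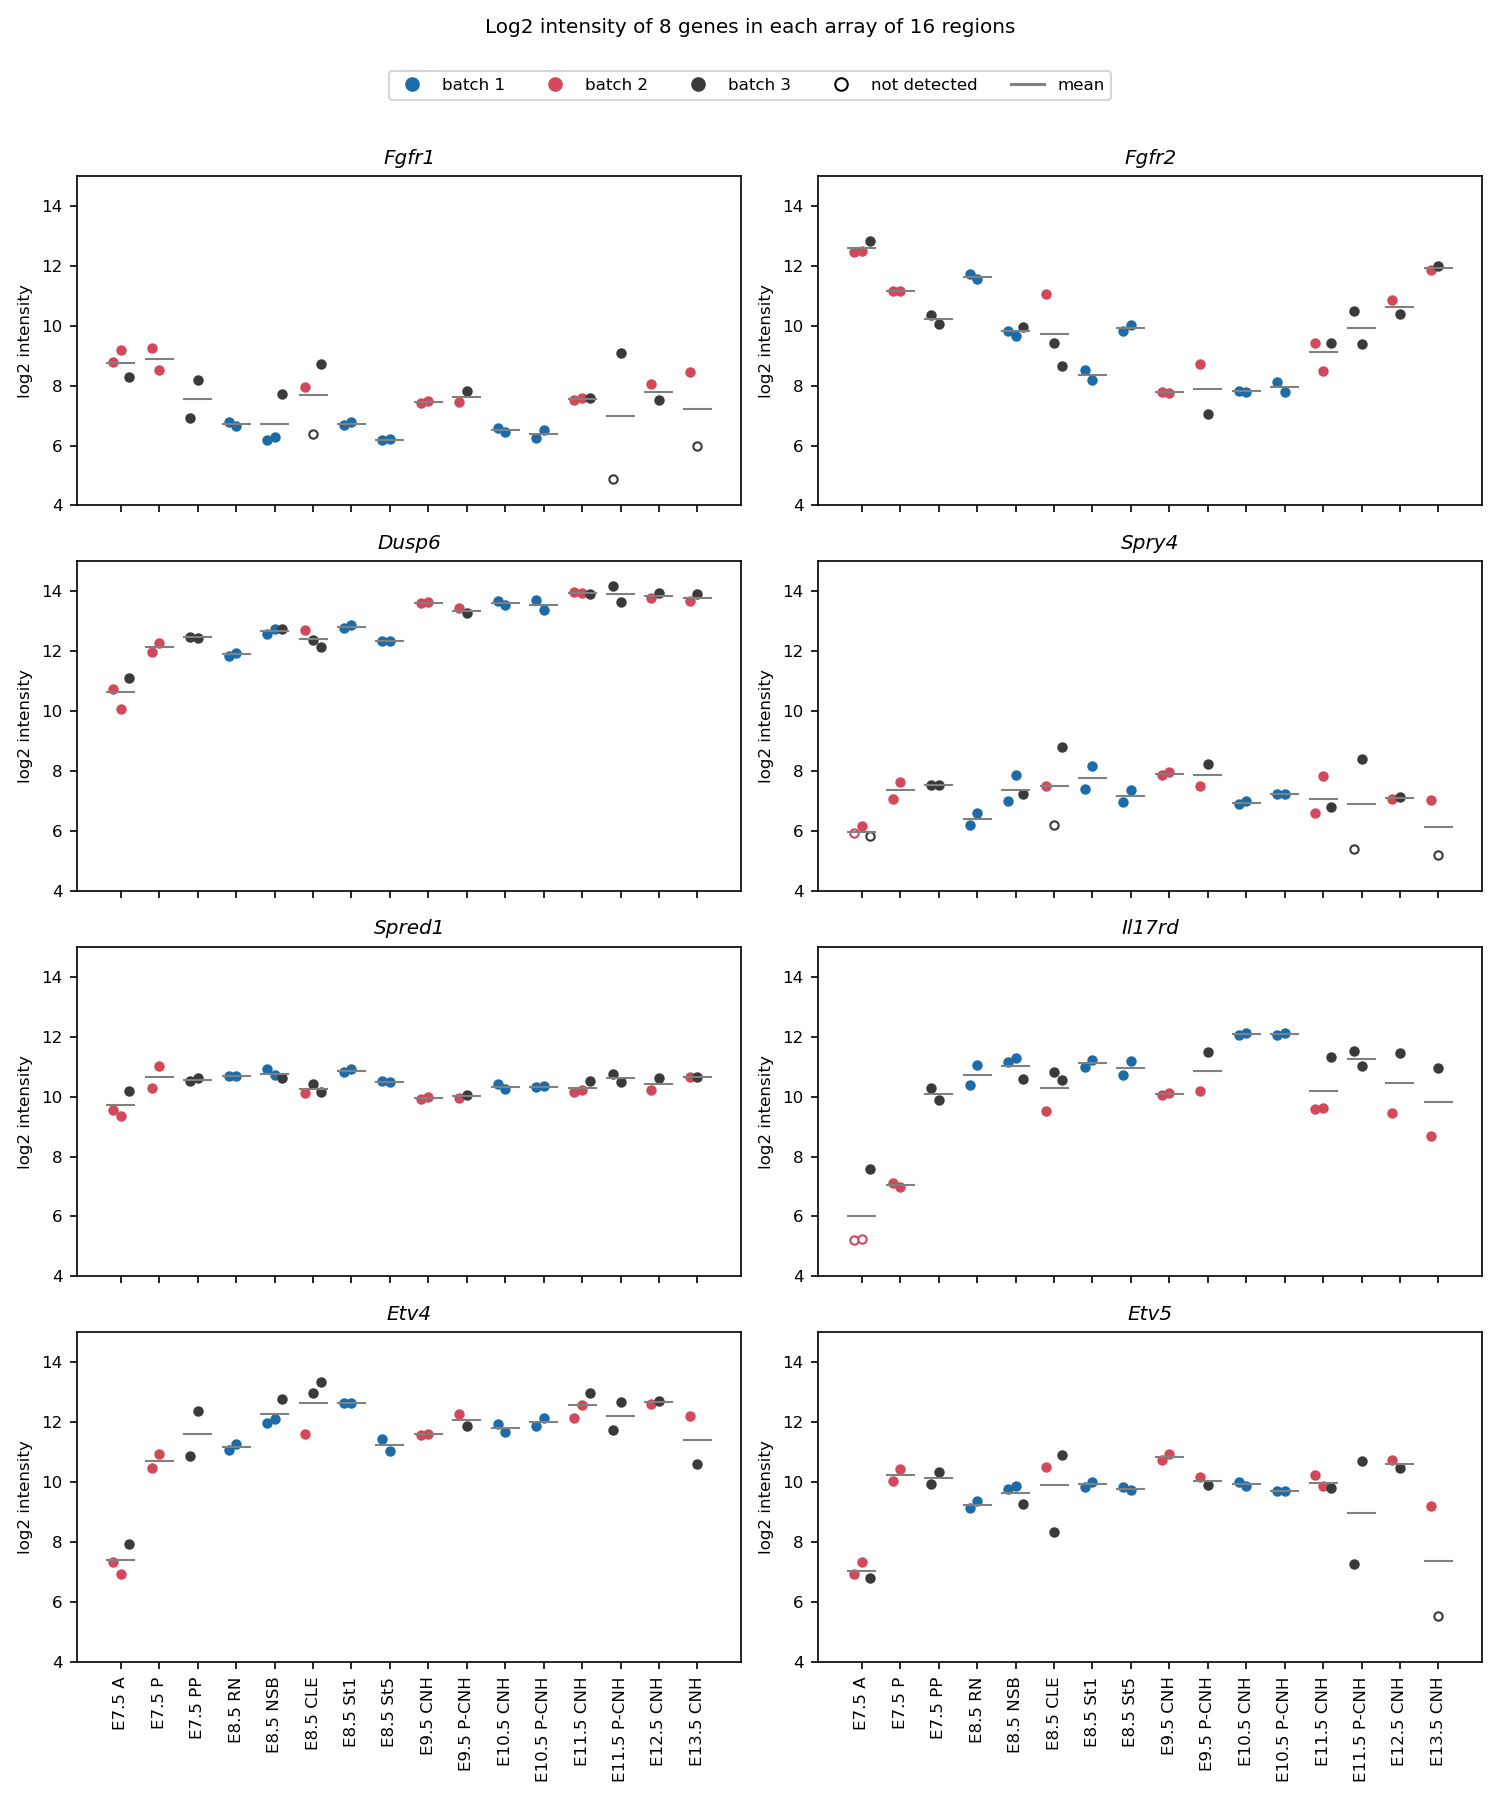
Log2 intensity of each tested member's brightest probe on each of the 36 arrays, by region. Fgfr2 runs from 12.83 in E7.5 A to 7.04 in E9.5 P-CNH, whereas Etv4 and Dusp6 have their lowest arrays in E7.5 A.

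Over the 16 regions, 6 of the 8 tested members varied by limma's F test, against 38.1% of all genes tested. Those 6 were Fgfr2 (adjusted p 7.01e-08), Dusp6 (1.09e-09), Spred1 (0.0112), Etv4 (4.64e-07), Etv5 (0.0101) and Il17rd (6.38e-11). Fgfr1 (0.904) and Spry4 (0.351) did not pass. A dimmer Fgfr1 probe (ILMN_2675581), detected on 2 of 36 arrays, did vary by this F test (adjusted p 0.000418). Spry4 passed with the BeadChip as a random block (0.024), which here always takes the place of the batch term, and with detected probes as a covariate (0.0465). Without the 4 sparse arrays all 8 passed, against 60.3% of all genes, Fgfr1 at 0.00263 and Spry4 at 0.000921. In pooled tissue, fewer cells of a type and less RNA per cell cannot be told apart.

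Fgfr2, the receptor whose epithelial splice form binds FGFs made by mesenchyme, had the widest span of the receptors. Its fitted level, after the batch term, was highest in E7.5 A (12.34), RN (11.95) and E13.5 CNH (11.78). Next came P (10.76), E12.5 CNH (10.47), PP (10.32), St5 (10.22), NSB (10.05), E11.5 P-CNH (10.03) and CLE (9.65). The low end held E11.5 CNH (8.87), St1 (8.67), E10.5 P-CNH (8.27), E10.5 CNH (8.13), E9.5 P-CNH (7.72) and E9.5 CNH (7.36). That is a span of 4.98, or 31.6-fold. Of its 120 region pairs 44 were called. Fgfr1, the receptor needed for streak mesoderm, spanned 1.49 (2.81-fold) from E7.5 A (8.07) to E9.5 CNH (6.58), with 0 of 120 pairs called. Both ends rest on the batch term, since array means ran from 8.90 in P to 6.20 in St5, with 8.76 in A and 7.46 in E9.5 CNH.

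Among the inhibitors, Dusp6, a phosphatase that removes the activating phosphates from ERK, was at its highest in E11.5 CNH (13.94) and at its lowest in E7.5 A (10.65), a 9.83-fold span with 50 pairs called. The streak regions lay between, with St1 at 12.85, NSB at 12.70, P at 12.16 and RN at 11.94. Il17rd (Sef), a membrane inhibitor of the receptors, ran from 11.48 in E9.5 CNH down to 9.70 in PP, 8.44 in P and 6.82 in A, with 41 pairs called. That top place rests on the batch term, since by array means E9.5 CNH was at 10.08, below NSB (11.02), St1 (11.11) and both E10.5 regions (12.08 in CNH, 12.09 in P-CNH). Spred1, which holds back Raf activation, spanned 2.06-fold from P (10.92) to A (9.88), with 8 pairs called. Spry4, a Sprouty inhibitor of the Ras pathway, had a fitted span of 1.93 from E9.5 P-CNH (7.89) to A (5.96), with 0 pairs called. Only 1 of 3 A arrays detected it, so no fold is given. For the ETS factors, Etv4 was highest in St1 (13.03) and lowest in P (10.65) and A (7.26), a 54.9-fold span with 18 pairs called. Etv5 ran from E12.5 CNH (10.64) to E13.5 CNH (7.41) and A (6.91), with 14 pairs called. Before the batch term other extremes differ too, by array means: the highest was St1 for Spred1 (10.87), E9.5 CNH for Etv5 (10.85) and Spry4 (7.92), and E12.5 CNH for Etv4 (12.66, St1 at 12.65).

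**Figure D2:**
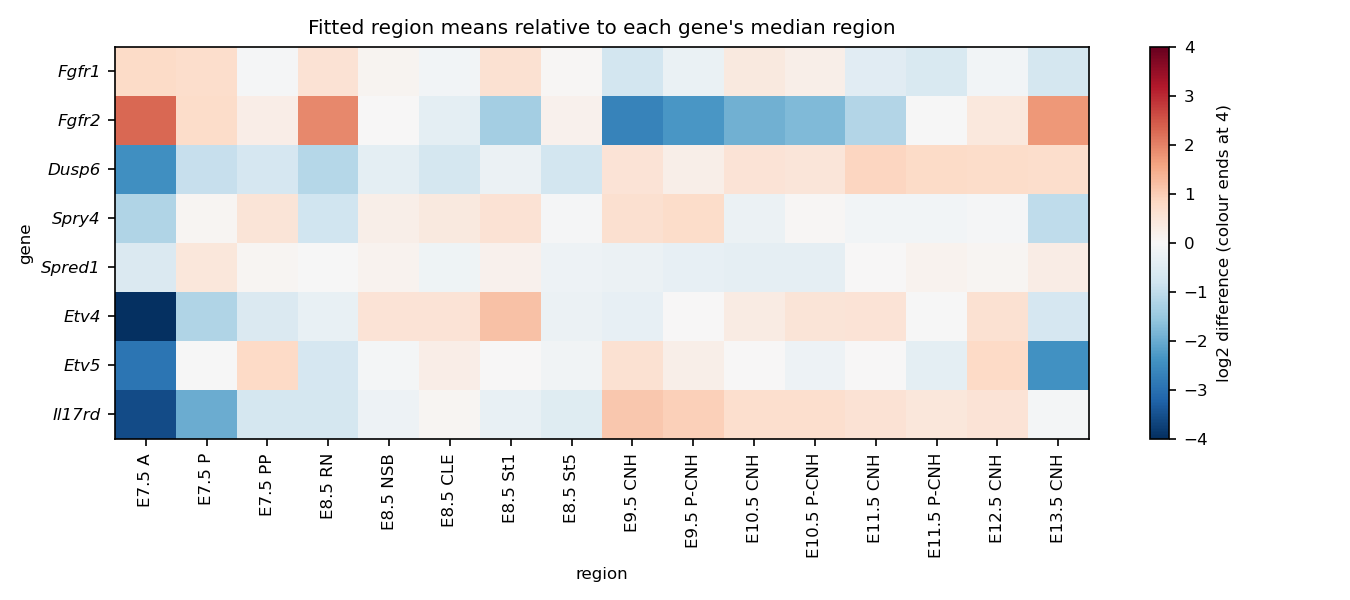
Fitted log2 level of each tested member in the 16 regions after the batch term, as a difference from that gene's median region (colour). E7.5 A holds the lowest level of Dusp6, Spry4, Spred1, Etv4, Etv5 and Il17rd and the highest of Fgfr2 and Fgfr1.

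The promoters of Fgfr2 and Dusp6 are shown because these members carried most of the calls between regions and stages. RefSeq promoter windows of 300 bases (build GRCm38.p6) matched 7 of the 10 members, in 8 windows, and no window was matched for Fgfr1, Spry4 or Etv4. The stretches below are the 250 bases before the start site, read 5′ to 3′ on the gene's own strand. Fgfr2 lies on the minus strand at chr7:130266809-130267058, with 44% G or C, and Dusp6 on the plus strand at chr10:99262981-99263230, with 56.4%.
Fgfr2: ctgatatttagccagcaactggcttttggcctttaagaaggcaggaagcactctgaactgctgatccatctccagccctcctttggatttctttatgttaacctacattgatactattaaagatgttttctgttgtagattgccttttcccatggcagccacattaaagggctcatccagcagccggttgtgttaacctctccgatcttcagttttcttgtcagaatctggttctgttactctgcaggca
Dusp6: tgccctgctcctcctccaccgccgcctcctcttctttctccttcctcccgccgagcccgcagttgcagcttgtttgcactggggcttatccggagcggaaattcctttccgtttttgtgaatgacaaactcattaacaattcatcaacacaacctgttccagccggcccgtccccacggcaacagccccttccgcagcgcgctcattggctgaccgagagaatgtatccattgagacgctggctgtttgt

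Each of 4 motifs was searched on both strands of the 300-base windows. CCGGAAG (ETS family) was held by 8.86% of all 32851 windows, CTTTGAA (TCF/LEF) by 5.14%, TCACACC (T-box) by 3.98% and TGACGTCA (CRE) by 1.79%. In the member windows 0 matches were found, which says only that these letters are not in them, and the sequences above therefore carry no capitals.

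At E7.5, the question was which genes separate the streak-bearing posterior from the anterior, neural-fated tissue. Dusp6, Spred1, Il17rd and both ETS factors were higher posteriorly: 5 of 8 members were called higher in P than in A, against 1.51% of all genes. At an unadjusted p under 0.05 there were 6. The median difference was 1.39 over the members and -0.06 over all genes. Neither receptor's brightest probe was called.

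Fgfr2 was 12.45, 12.48 and 12.83 in A and 11.17 on both P arrays. All A arrays lay above both P arrays, yet the difference of -1.59 (SE 0.468) missed the threshold (limma adjusted p 0.081). Fgfr2 was called lower in P with no background correction (-1.60, adjusted p 0.0353), with an offset of 100 (-1.53, 0.0452) and when BeadChip was a random block (-1.48, 0.0302). Leaving out the 4 sparse arrays gave -1.49 with an adjusted p of 0.0108, and 7 members were then called against 7.64% of all genes. Fgfr1 differed by -0.05 (adjusted p 0.997), on overlapping arrays. A dimmer Fgfr1 probe (ILMN_2675581), undetected on the 3 A arrays and detected on both P arrays, was at least 1.27-fold higher in P (adjusted p 6.18e-05). Such a bound sets an undetected group no lower than the dimmest detected probe of each of its arrays.

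Dusp6 read 10.75, 10.08 and 11.11 in A and 11.98 and 12.29 in P. Both P arrays were above all A arrays, and Dusp6 rose by 1.51 (SE 0.239, 95% interval 1.01 to 2.00), or 2.84-fold (adjusted p 0.000347). Its probe ILMN_2701321, undetected in A, was at least 2.08-fold higher (adjusted p 0.0474), and ILMN_1248537 differed by 1.51 with an adjusted p of 0.143. Spred1 was 9.57, 9.37 and 10.20 in A and 10.28 and 11.02 in P. The groups did not overlap but lay close together, and the fitted rise was 1.04 (SE 0.202; 2.06-fold; adjusted p 0.00327). Without P replicate 2 Spred1 differed by 0.67 (adjusted p 0.12), and only 3 members were called. On batches 2 and 3 alone its adjusted p was 0.0583. Il17rd read 5.22, 5.24 and 7.57 in A, undetected on the first 2, and 7.12 and 6.97 in P. The arrays overlap: A replicate 3, the high array, was in batch 3 and the others in batch 2. With the batch term Il17rd was 1.63 higher in P (SE 0.263, adjusted p 0.000419), and without that term 1.03 (adjusted p 0.703). No fold is given, because 2 of the 3 A arrays lay below detection, and these sizes are not exact. With the BeadChip as a random block it was 1.42 (adjusted p 0.0763), with no background correction 1.01 (0.0103) and with an offset of 100 0.93 (0.0147). A second Il17rd probe (ILMN_1218196) gave 1.36 (adjusted p 0.0423). Spry4 read 5.94, 6.18 and 5.83 in A, detected on 1 of the 3, and 7.07 and 7.64 in P. No arrays overlap, and the difference of 1.28 (SE 0.685) had an adjusted p of 0.547, and of 0.0179 (difference 1.36) without the 4 sparse arrays.

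Etv4, a transcription factor induced by FGF, read 7.35, 6.94 and 7.92 in A and 10.46 and 10.95 in P. The gap between the groups exceeds the spread within either. Etv4 rose by 3.40 (SE 0.484, 95% interval 2.40 to 4.40), with an adjusted p of 9.18e-05. Its close relative Etv5 read 6.94, 7.34 and 6.79 in A and 10.03 and 10.43 in P. Again no arrays overlap, and the rise was 2.91 (SE 0.767; 7.53-fold; adjusted p 0.0398). A second Etv5 probe (ILMN_2938047) gave 2.33 (adjusted p 0.085). The Etv5 call was lost in 26 of the 36 fits that left out 1 array. Its adjusted p was 0.177, 0.0791 and 0.0615 without A replicates 1, 2 and 3, and 0.158 and 0.188 without P replicates 1 and 2. It was 0.0504 to 0.0538 without E11.5 CNH replicate 3 or any array of PP, RN, St1, St5, E9.5 CNH, E9.5 P-CNH, E10.5 CNH, E10.5 P-CNH or E12.5 CNH, or without NSB replicate 1 or 2. Among batches 2 and 3 alone it was 0.218 and with all probes tested 0.101.

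Batch 2 alone holds 2 arrays of A and both of P, and there 4 members were called against 1.9% of all genes. Dusp6 differed by 1.72 (adjusted p 0.0243), Etv4 by 3.56 (0.00166) and Etv5 by 3.09 (0.00233). Il17rd (0.00402) was undetected on both of these A arrays, so its size is not given. Spred1 gave 1.18 with an adjusted p of 0.101. Marker lists moved along with the members. Of 3 anterior neural genes, led by Sox2, 2 were lower in P, with sums of 7050, 6480 and 3650 in A and 1370 and 1130 in P, where Six3 was undetected. Both tested paraxial mesoderm genes, led by Tbx6, were higher in P (summed intensity 3020 and 2580) than in A (133, 159 and 119), Msgn1 not being tested. Of 4 node and notochord genes, led by Shh, 1 was lower in P, with sums of 2390, 2180 and 1270 in A and 783 and 724 in P. Of 2 tested somite genes, led by Tcf15, 1 was higher, with 866, 1120 and 477 in A and 2190 and 2820 in P. Tail bud genes, led by Cyp26a1, had 1 of 3 lower in P (603 and 524, against 1850, 1600 and 1660), Hoxc10 and Hoxd10 being undetected in both. Of 7 visceral endoderm genes, led by Apoa1, 1 was higher in P, with sums of 10800 and 6070 against 2100, 2160 and 10900 in A. The part of tissue composition in the member differences was not tested.

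Between PP and P, limma called 0 of 8 members, against 0.829% of all genes, with 1 at an unadjusted p under 0.05. That member was Il17rd, at 10.29 and 9.90 in PP and 7.12 and 6.97 in P. Its arrays are far apart, but PP and P were run in different batches, and after the batch term the difference was 1.26 (SE 0.32; adjusted p 0.0747). The count became 1 without A replicate 3, E13.5 CNH replicate 1 or E13.5 CNH replicate 2. Fgfr1's dimmer probe (ILMN_2675581) was undetected in PP and at least 1.69-fold lower there than in P (adjusted p 0.000948).

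**Figure D3:**
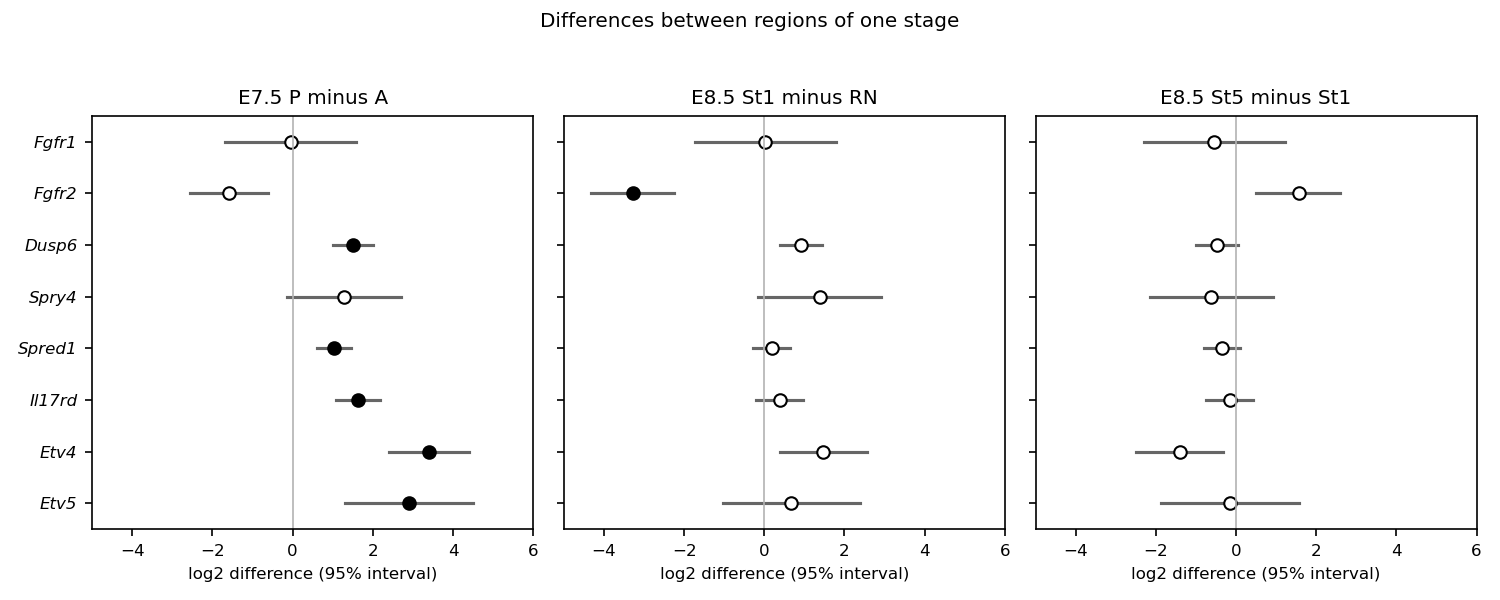
Log2 differences of the 8 tested members in E7.5 P against A, St1 against RN and St5 against St1, with 95% intervals as lines and called members as filled points. Etv4 in P against A stands at 3.40 and Fgfr2 in St1 against RN at -3.28, the highest and lowest points drawn.

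At E8.5 the comparisons ask how the notochord-fated rostral node, the progenitor-bearing border and epiblast, and both ends of the streak differ. Fgfr2 was the member that varied: the F test over the 5 regions called 1 of 8 members, Fgfr2 (adjusted p 0.00152), against 7.46% of all genes. Leaving out A replicate 2 made that count 2, against 7.38%, and leaving out the 4 sparse arrays made it 5, against 16.6%. Comparisons against RN share its 2 arrays, and those with St1 share its 2.

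Fgfr2 read 11.73 and 11.55 in RN, 9.82, 9.66 and 9.95 in NSB, and 11.07, 9.44 and 8.66 in CLE. It read 8.52 and 8.19 in St1 and 9.81 and 10.02 in St5. RN was above every other E8.5 array, St1 was below every other, and CLE was scattered over most of the range. St1 against RN gave 1 lower member of 8, Fgfr2, against 1.98% of all genes called lower. Fgfr2 fell by 3.28 (SE 0.503), or 9.73-fold (adjusted p 0.000201), and by the mean of its probes the difference was -2.17 (0.000329). A dimmer Fgfr2 probe (ILMN_2609887) was detected on both RN arrays, at 6.97 and 6.82, and on no St1 array, and was at least 2.43-fold lower in St1 (adjusted p 0.000115). Dusp6 went the other way, at 11.86 and 11.96 in RN and 12.77 and 12.88 in St1. Those arrays do not overlap, and the difference was 0.91 (SE 0.257; adjusted p 0.0749). Etv4, at 11.08 and 11.27 in RN and 12.64 and 12.65 in St1, differed by 1.47 (SE 0.52; adjusted p 0.269). The count was 2 without A replicate 2, A replicate 3 or CLE replicate 1.

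All RN and St1 arrays belong to batch 1. Fitted on batch 1 alone, 5 members were called against 8.67% of all genes. Fgfr2 was -3.28 (adjusted p 1.94e-07), Dusp6 0.91 (0.000686), Spry4 1.38 (0.0108), Etv4 1.47 (8.06e-05) and Etv5 0.67 (0.00335). In batch 1 the replicate number is also the BeadChip, and with that number as a block 5 members were called, against 8.95%. The fit without the 4 sparse arrays also called 5, against 4.99%. Of the 4 tested gut endoderm genes, led by Cldn6, 1 was lower in St1, with sums of 17200 and 17100 in RN and 6420 and 5920 in St1; Epcam was not tested. Streak genes, led by T, had 4 of 5 higher in St1, with sums of 28000 and 29800 against 6760 and 8600. Both tested somite genes were lower in St1 (250 and 241) than in RN (1310 and 835). Paraxial mesoderm genes, led by Tbx6, had 1 of 2 higher in St1 (4360 and 4300, against 1510 and 869). Of 3 anterior neural genes 1 was lower, and of 3 tested tail bud genes 1 was higher. Whether these tissues account for part of the Fgfr2 difference was not tested.

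NSB against RN gave 0 called members by limma, against 0.135% of all genes, with 2 at an unadjusted p under 0.05. Fgfr2 differed by -1.90 (SE 0.503; adjusted p 0.328) and Dusp6 by 0.76 (SE 0.257; adjusted p 1), in each case with no overlap of arrays. The dimmer Fgfr2 probe ILMN_2609887 was undetected in NSB and at least 2-fold lower there (adjusted p 0.0298). On batch 1 alone 3 members were called against 2.1%, namely Fgfr2 (-1.90, adjusted p 0.000117), Dusp6 (0.76, 0.0114) and Etv4 (0.85, 0.0173). With the replicate number as a block there were 4, against 2.55%, Spry4 being added (1.04, 0.0204). The count was 1, against 0.489%, when the 4 sparse arrays were left out.

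St5 against St1 also gave 0 called members by limma, against 3.66%, with 2 at an unadjusted p under 0.05. Fgfr2 was 1.56 higher in St5 (SE 0.503; adjusted p 0.122), and Etv4, at 11.43 and 11.04 in St5 against 12.64 and 12.65 in St1, differed by -1.41 (adjusted p 0.229). Neither pair of groups overlaps. Batch 1 alone called these 2 members, against 13.2% of all genes (Fgfr2 adjusted p 3.47e-05, Etv4 7.53e-05). The replicate number as a block gave 3, against 13.7%, with Spry4 at -0.62 (0.0491). The count was 1 without CLE replicate 1, against 4.17%, and 2 without the 4 sparse arrays, against 8.09%. Endothelial genes, led by Cdh5, had 2 of 3 tested higher in St5 (Kdr was not tested), with sums of 430 and 499 against 107 and 92.5 in St1, where all 3 were undetected. Paraxial mesoderm genes, led by Tbx6, had 1 of 2 lower in St5 (1970 and 2090, against 4360 and 4300), and somite genes, led by Tcf15, 1 of 2 (115 and 119, against 250 and 241). The part of these tissues in the differences was not tested.

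Setting NSB, CLE and St1 against RN and St5 gave 0 called members by limma, against 1.27%, with 3 at an unadjusted p under 0.05. Fgfr2 differed by -1.63 (SE 0.414; adjusted p 0.0601), Dusp6 by 0.49 (0.641) and Etv4 by 1.03 (0.579). Without the 4 sparse arrays, which include CLE replicates 1 and 2, there were 4, against 4.25%. They were Fgfr2 (-1.93, adjusted p 0.00122), Spry4 (1.29, 0.0245), Etv4 (1.23, 0.0292) and Etv5 (0.88, 0.00258). The count was 1 without any of 10 arrays: A replicate 3, CLE replicate 1, either array of E9.5 P-CNH, E11.5 P-CNH or E13.5 CNH, and E11.5 CNH replicates 2 and 3.

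Over time, St5 against the E7.5 PP region compared the caudal streak at successive stages. limma called 0 members, against 1.05%, and 0 had an unadjusted p under 0.05. From E7.5 P to NSB, 1 of 8 members was called higher, against 2.17% of all genes. Il17rd, at 7.12 and 6.97 in P and 11.17, 11.28 and 10.60 in NSB, rose by 1.77 (SE 0.377; 3.41-fold; adjusted p 0.00941). Every NSB array lies above both P arrays, by more than the fitted value: P was in batch 2, NSB in batches 1 and 3, and the batch term takes up part of the gap. Among the NSB arrays, the fitted rise rests on replicate 3 alone. On batches 2 and 3, where NSB has only that array, the difference was again 1.77 and was not called. With no batch term the difference was 3.97 (0.000576) and when BeadChip was a random block 2.87 (0.00414). Etv4 differed by 1.76 (adjusted p 0.199). Of 4 node and notochord genes, led by Shh, 3 were higher in NSB, with sums of 783 and 724 in P and 3360, 4240 and 3340 in NSB. Visceral endoderm genes, led by Apoa1, had 2 of 7 lower in NSB, with sums of 10800 and 6070 in P and 1190, 702 and 1340 in NSB. Afp and Rbp4 were undetected in P, and Afp, Apoa2 and Apob in NSB. The part of these tissues in the Il17rd rise was not tested.

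From NSB to the tail bud, Fgfr2 fell at E9.5 and E10.5, and Dusp6 rose at E10.5. After the batch term these 2 comparisons rest on different NSB arrays. The fitted E9.5 difference uses only NSB replicate 3, and the E10.5 difference only NSB replicates 1 and 2. E9.5 CNH gave 1 lower member, Fgfr2, against 3.52% of all genes. It read 7.78 and 7.77 in E9.5 CNH, and 9.82, 9.66 and 9.95 in NSB. No arrays overlap, and Fgfr2 fell by 2.69 (SE 0.672), 6.45-fold (adjusted p 0.018). The call was lost without E9.5 CNH replicate 1 or replicate 2, which leaves 1 array there, with the difference at -2.69 in each case. It was also lost on batches 2 and 3 alone, where NSB has 1 array, again at -2.69. With the BeadChip as a random block (-1.60, adjusted p 0.0871) and with the mean of a gene's probes (-1.26, 0.129) it was lost at a smaller difference. That mean includes the dimmer Fgfr2 probes ILMN_2609887 and ILMN_1229167, which were undetected on all NSB and E9.5 CNH arrays. Dusp6 read 13.60 and 13.65 in E9.5 CNH, above all NSB arrays, and differed by 0.94 (adjusted p 0.132). It was called with no batch term (0.93, 0.014), with batch means removed (0.99, 0.00722), with the BeadChip as a random block (1.27, 0.00779) and with the mean of its probes (1.90, 0.00968). Leaving out either array of RN, E9.5 P-CNH or E11.5 P-CNH, or CLE replicate 1 or 3, gave 2. Without the 4 sparse arrays 4 members were called, against 17.2%: Fgfr2 (-2.40, 0.00328), Dusp6 (1.06, 0.0205), Etv5 (1.30, 0.00164) and Il17rd (1.35, 0.00773). Il17rd had array means of 10.08 in E9.5 CNH and 11.02 in NSB, yet a fitted difference of 1.27 (adjusted p 0.0528), so its direction depends on the batch term.

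E10.5 CNH against NSB called 1 of 8 members higher, against 3.93%, and 1 lower, against 4.13%. Dusp6 read 13.68 and 13.55 in E10.5 CNH, and 12.59, 12.75 and 12.74 in NSB. Both CNH arrays are above all NSB arrays, and Dusp6 rose by 0.94 (SE 0.257, 95% interval 0.41 to 1.47; 1.92-fold; adjusted p 0.0238). Its dimmer probes gave 1.53 (ILMN_1248537, adjusted p 0.101) and 1.31 (ILMN_2701321, 0.391). Fgfr2, at 7.83 and 7.80 in E10.5 CNH, fell by 1.93 (SE 0.503; 3.8-fold; adjusted p 0.0169). Both calls were lost, leaving 0, without any 1 of 4 arrays. Without NSB replicate 1 the adjusted p was 0.135 for Fgfr2 and 0.208 for Dusp6, and without NSB replicate 2 it was 0.0879 and 0.0919. Without E10.5 CNH replicate 1 it was 0.107 and 0.196, and without replicate 2 it was 0.114 and 0.0999. With the mean of a gene's probes Fgfr2 differed by -0.92 (adjusted p 0.136), its other tested probes being undetected on all arrays of both groups. Batch 1 alone, which holds both E10.5 arrays and 2 of NSB, called 3 members against 20.8% of all genes, namely Fgfr2 (3.28e-06), Dusp6 (0.000206) and Il17rd (0.85, 0.00836). The replicate number as a block there also gave 3, against 21.1%. Il17rd differed by 0.85 (adjusted p 0.0775) on all arrays and was called after cyclic loess (0.0381), without background correction (0.0238), at offset 100 (0.0268) and with detected probes as a covariate (0.0301). Without the 4 sparse arrays 3 members were called, against 15%, Il17rd among them (0.0167).

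Markers of other tissues moved with these differences. All 4 tested gut endoderm genes were lower in E9.5 CNH and in E10.5 CNH than in NSB. Their sums were 13200, 13800 and 15600 in NSB, 1260 and 1170 in E9.5 CNH, where Sox17 was undetected, and 2900 and 2420 in E10.5 CNH. The blood gene Hba-a1 had a mean log2 intensity of 9.36 in NSB (SD 1.03, n = 3), 13.08 in E9.5 CNH (SD 0.02, n = 2) and 12.74 in E10.5 CNH (SD 0.11, n = 2). Endothelial genes had 1 of 3 higher at E10.5, with sums of 241 and 327 against 94.8, 106 and 71.1 in NSB, where all 3 were undetected. Somite genes, led by Tcf15, had 1 of 2 lower at E9.5 (642 and 607) and 1 of 2 higher at E10.5 (1050 and 1040), against 588, 487 and 977 in NSB. Surface ectoderm genes, led by Cldn4, had 1 of 5 lower at E9.5, summing to 296 and 320 against 695, 583 and 1080 in NSB. At E10.5 they had 0 called (498 and 449). Anterior neural genes, led by Sox2, had 1 of 3 lower at both stages. At E10.5, visceral endoderm genes had 2 of 7 lower and caudal streak genes 1 of 3, while streak genes had 1 of 5 higher. The part of these tissues in the Fgfr2 and Dusp6 differences was not tested.

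Late in axis elongation Fgfr2 returned to high levels. It read 10.86 and 10.39 in E12.5 CNH and 11.86 and 12.01 in E13.5 CNH, against 7.78 and 7.77 at E9.5 and 7.83 and 7.80 at E10.5. All 4 late arrays are above all 4 early ones, by more than any spread within a stage. E12.5 and E13.5 against E9.5 and E10.5 called 1 of 8 members higher, against 4.22%, and Fgfr2 rose by 3.38 (SE 0.47, 95% interval 2.40 to 4.35; 10.4-fold; adjusted p 5.48e-05). The 3 arrays of E11.5 CNH had a mean of 9.11, between the early and the late arrays. With the mean of a gene's probes the difference was 1.58 (adjusted p 0.00336). Dusp6 differed by 0.17 (adjusted p 0.795), Spred1 by 0.49 (0.199), Il17rd by -0.63 (0.207) and Etv5 by -1.13 (0.52). Dimmer Dusp6 probes gave -0.57 (ILMN_1248537, adjusted p 0.647; means 9.74 at E9.5, 11.80 at E10.5 and 8.69 at E13.5) and -0.59 (ILMN_2701321, 0.719), the latter undetected on both E13.5 arrays. The ILMN_1248537 means are before the batch term, with E9.5 in batch 2, E10.5 in batch 1 and E13.5 in batches 2 and 3. Within E12.5 CNH, in batches 2 and 3, that probe ran from 9.56 to 11.52. Etv5 read 10.73 and 10.47 in E12.5 CNH but 9.22 and 5.52 in E13.5 CNH, the last undetected and on the array with the fewest detected probes. The count was 3 without the 4 sparse arrays, against 14.8%, with Spred1 at 0.59 (0.0484) and Il17rd at -0.73 (0.0447).

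Surface ectoderm genes, led by Cldn4, rose over the same interval, with 3 of 5 called. Their sums were 296 and 320 at E9.5, 498 and 449 at E10.5, 1690 and 1620 at E12.5 and 4210 and 4260 at E13.5. Trp63, Krt14 and Krt15 were undetected at E9.5 and E10.5, and Krt15 at E12.5 and E13.5. Gut endoderm genes gave 1 higher and 1 lower of 4, with 4280 and 4380 at E12.5 and 6110 and 6730 at E13.5. Streak genes, led by T, had 2 of 5 lower, with sums of 30600 and 31700 at E9.5, 33700 and 35600 at E10.5, 32600 and 32700 at E12.5, and 21900 and 10700 at E13.5, where Mixl1 was undetected. Tail bud genes, led by Cyp26a1, had 2 of 3 lower, falling from 21100 and 22600 at E9.5 to 12200 and 11700 at E13.5. Somite genes, led by Tcf15, gave 1 higher and 1 lower of 2, with 642 and 607 at E9.5 and 1840 and 1290 at E13.5. The part of these tissues in the Fgfr2 rise was not tested.

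**Figure D4:**
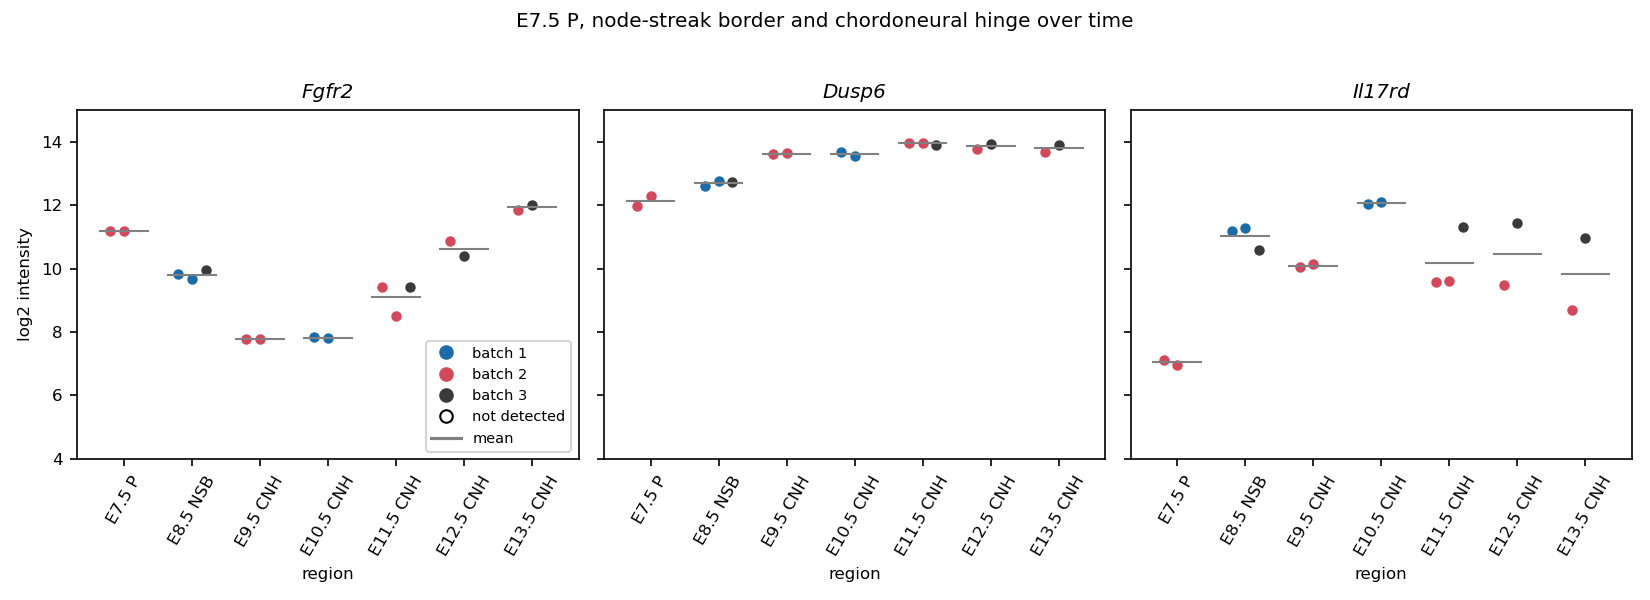
Log2 intensity of Fgfr2, Dusp6 and Il17rd on each array of E7.5 P, NSB and CNH, with group means as lines. Fgfr2 is at 7.77 to 7.83 at E9.5 and E10.5 and at 11.86 and 12.01 at E13.5, and Dusp6 stays between 13.55 and 13.97 on all CNH arrays.

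By the F test over NSB and the CNH stages, 4 of 8 members varied, against 24.9% of all genes. They were Fgfr2 (adjusted p 8.13e-06), Dusp6 (0.00818), Il17rd (0.0107) and Etv5 (0.0497). Etv5 was not called after cyclic loess, without background correction, at offset 100, with all probes tested or at a detection p-value under 0.05. Il17rd was not called without the batch term, when BeadChip was a random block or by the mean of its probes, and its second probe (ILMN_1218196) had an adjusted p of 0.633. A second Etv5 probe (ILMN_2938047) had 0.0144, and for Dusp6 ILMN_1248537 had 0.00853 and ILMN_2701321 had 0.0789.

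P-CNH against CNH compared mesoderm-fated tissue with its progenitor-bearing neighbour at each stage. No member passed in any of the 3 comparisons. limma called 0 members at E9.5 (against 0.174%), 0 at E10.5 (0.321%) and 0 at E11.5 (0.18%), with 0, 0 and 1 at an unadjusted p under 0.05. That 1 was Fgfr2 at E11.5, at 10.48 and 9.38 in P-CNH and with a mean of 9.11 and a highest array of 9.42 in CNH. The groups overlap, and the difference was 1.16 (SE 0.493; adjusted p 0.913). Without the 4 sparse arrays, 1 of which is E11.5 P-CNH replicate 1, 2 members were called at E11.5, against 1.72%. They were Fgfr1 (1.67, adjusted p 0.038) and Etv5 (0.93, 0.0435), with P-CNH then resting on 1 array. With all arrays the differences had the opposite sign, -0.18 for Fgfr1 and -0.40 for Etv5. Over the 3 stages the difference itself varied in 0 members by limma's F test, against 0.0386% of all genes, with 0 at an unadjusted p under 0.05. A second test asked whether the St5 against St1 difference at E8.5 departed from the PP against P difference at E7.5, P being the posterior piece that holds the streak and not a rostral streak. It called 0 members, against 0.81%, with 3 at an unadjusted p under 0.05: Il17rd -1.41 (adjusted p 0.164), Fgfr2 2.00 (0.37) and Etv4 -2.03 (0.379).

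The rest of the pathway was counted from fixed lists. Of 18 other receptors and co-receptors 16 were tested, of 22 signal transducers 19, of 13 other inhibitors 10, of 12 other induced transcripts 10 and of 8 FGF ligands 8. Counts of called genes below stand beside the share of all genes called in either direction. Their differences are fitted after the batch term, and between batches they can be far from those of array means. In P against A (2.88%) the receptor list had 1 higher and 1 lower, Gpc3 (0.85) and Gpc4 (at least 1.22-fold lower). Both are glypicans, cell-surface proteoglycans that bind growth factors. The induced list had Ccnd1, a cyclin, higher by 0.70 (adjusted p 0.00417). Ligands had 4 higher and 1 lower, among them Fgf17, undetected in A and at least 7.63-fold higher in P (adjusted p 2.8e-08), and Fgf8, higher by 2.89 (adjusted p 7.83e-06). In PP against P (0.829%), Klb, a co-receptor for endocrine FGFs, was at least 1.98-fold higher (adjusted p 0.000351).

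At E8.5, in NSB against RN (0.135%), Fgf8 was 1.95 higher (adjusted p 0.0298) and Fgf17 1.81 (0.0479). Against RN (2.54%), St1 had 3 ligands higher and 1 lower, led by Fgf17 (2.83, adjusted p 2.75e-05) and Fgf8 (2.81, 3.05e-05), while Flrt3, a membrane partner of FGF receptors, differed by -1.58 (0.0198). Between St5 and St1 (3.66%) the receptor list had 1 higher, Sdc2 (0.85, adjusted p 0.0226), and 2 lower, Ncam1 (-2.49, 0.00252) and Gpc4 (at least 3.62-fold lower, 0.000328). Transducers had Gab1 at 0.87 (0.0325), and ligands had Fgf10 at 2.30 (0.002) and Fgf4, at least 1.42-fold lower (0.0197). Other inhibitors had 2 lower, Lrig3 (-2.59, adjusted p 6.21e-07) and Lrig1 (-1.71, 0.0394), membrane proteins that restrain receptor tyrosine kinases. The induced list had Tbx3 higher by 5.06 (adjusted p 0.000106) and Etv1, an ETS factor related to Etv4 and Etv5, at -1.32 (0.0401).

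From E7.5 P to NSB (3.24%), the receptor list had Fgfrl1 at 1.65 (adjusted p 0.0105) and ligands had Fgf17 at 2.07 (0.0191). Later, Sdc3, a heparan sulphate syndecan, was higher than in NSB both in E9.5 CNH (2.62, adjusted p 0.0376) and in E10.5 CNH (2.38, 0.00618). It was the 1 receptor gene called at E9.5. At E10.5 there were 3 higher, the others being Fgfrl1 (0.96, adjusted p 0.0266) and Sdc2 (0.89, 0.00882). Other inhibitors had 1 called higher at E9.5, Spred3, which was undetected in both groups. At E9.5 (5.76%) the transducers had Sos2 at 1.82 (0.0272) and Pik3r1, a regulatory subunit of PI3 kinase, at -1.46 (0.00889). By array means the gaps were smaller, with Sos2 at 7.36 against 6.67 in NSB and Pik3r1 at 8.24 against 8.99. Ligands had 2 higher and 2 lower, led by Fgf18, undetected in NSB and at least 5.48-fold higher (0.000554), and Fgf5, at least 1.48-fold lower (0.0013). At E10.5 (8.06%) ligands had 3 higher and 2 lower, led by Fgf17 (2.30, 0.000142), Fgf18 (at least 1.89-fold higher, 0.00254) and Fgf5 (at least 2.23-fold lower, 0.00704). Other inhibitors had 2 lower there, Spry3 (-1.51, 0.00603) and Errfi1 (-0.83, 0.0133), and the induced list had Etv1 at -1.60 (0.00442) and Ier3 at 2.15 (0.0277).

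In the late against the early CNH (6.36%), Pik3r1 rose by 1.73 (adjusted p 3.66e-05). The induced list had 1 higher, Etv1 (1.62, 0.00355), and 1 lower, Ccnd1 (-0.78, 0.00104). By array means the Etv1 gap was smaller, at 7.63 late against 6.91 early. Ligands had 1 higher, Fgf10 (2.98, adjusted p 4.4e-05), and 3 lower, among them Fgf18 (at least 2.65-fold lower, 0.000579) and Fgf8 (-1.86, 0.00143).

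Across the 16 fitted region means, the members ran alike in part. Pearson's r was 0.88 between Dusp6 and Il17rd, 0.83 between Etv4 and Il17rd and 0.84 between Spry4 and Etv5, but 0.30 between Dusp6 and Spry4 and 0.40 between Dusp6 and Etv5. Fgfr2 had -0.75 with Spry4, -0.73 with Il17rd and -0.58 with Dusp6. Spred1 followed neither, with 0.00 for Il17rd, 0.29 for Fgfr2 and 0.32 for Etv4, its highest. With ligands, Il17rd gave 0.96 for Fgf17 and 0.90 for Fgf8, Dusp6 0.91 for Fgf17, and Fgfr2 -0.88 for Fgf8. Each r is a description over 16 points that share arrays, batches and a batch term, and carries no p. Among all tested genes, those most like Dusp6 were Lmo2 (0.971), Anxa5 (0.963) and Sall3 (0.954). For Fgfr2 they were Mtap7 (0.923), Cables1 (0.907) and Ephb1 (0.905). Spry4 had 2310007H09Rik (0.902), E330027M22Rik (0.897) and Mospd1 (0.877), and Fgfr1 had H2afj (0.895), Echs1 (0.894) and Cbs (0.874).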

How the data were processed

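RNA of 36 pools of dissected MF1 embryo tissue was measured on Illumina BeadChips. The authors deposited, per probe and array, a non-normalized bead intensity and a detection p-value. In R 4.3.3 with limma 3.58.1, intensities were background corrected, quantile normalised and log2 transformed (neqc, offset 16). Of 45281 probes, 23569 never reached a detection p-value under 0.01 on any array and were left out, and 21712 were tested. A linear model with 16 regions and 3 batches (18 residual degrees of freedom) was fitted across all tested probes with moderated statistics, and p-values were adjusted by Benjamini-Hochberg over them. Calls required a fold of 1.5 or more with an adjusted p no greater than 0.05. The paper's own transformation and batch correction were replaced by these steps. The batches are those the labels give.

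All members are named, each by its brightest tested probe. Other genes of the pathway were counted from lists, and up to 3 called genes with the largest difference per list and comparison could be named. Likeness is Pearson's r over fitted means. Of 1 marker list only the brightest gene is given, since another gene on it is not reported here. Members and lists were chosen with earlier results of these data known. Signal over background had medians of 8.64, 4.19 and 5.89 in batches 1, 2 and 3.

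Of 18 other settings, 13 covered background correction, offset, normalization, batch handling, replicate block, filters and probe choice, and each array was left out in turn. A further 5 were chosen after seeing the data, member values on the 4 sparse arrays included. These left out those arrays, used only batch 2 or only batch 3, blocked batch 1 by replicate number, or added detected probes as a covariate. The steps were tested on simulated data.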

Additional observations from a re-analysis of the deposited data

How the results depend on the processing

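No member difference called with all arrays turned direction in those of the 18 other settings and 36 fits without 1 array that fitted the comparison. Some of these settings could not turn it. The filters, and the fits on batch 1 alone or on batches 2 and 3 alone, left the fitted differences of called members as they were. Some of those not called did turn. The Il17rd difference of E9.5 CNH from NSB, 1.27 as fitted, turned with no batch term, its array means being 10.08 and 11.02. Fgfr1 and Etv5 in E11.5 P-CNH against CNH went from -0.18 and -0.40 to 1.67 and 0.93 without the 4 sparse arrays. Counts below are members called, and the cause was not tested except where said.

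On batches 2 and 3 alone the count was 3 in E7.5 P against A, 0 in NSB against E7.5 P and 0 in E9.5 CNH against NSB, with fewer arrays. Cyclic loess gave 1 in PP against P and 1 in NSB, CLE and St1 against RN and St5. With no batch term the counts were 1 in PP against P, 2 in NSB, CLE and St1 against RN and St5, 2 in NSB against E7.5 P and 3 in E9.5 CNH against NSB. Removing batch means beforehand gave 2 in NSB, CLE and St1 against RN and St5 and 3 in E9.5 CNH against NSB. The BeadChip as a random block took the place of the batch term, and its consensus correlation of 0.483 was estimated without that term. That setting gave 1 in NSB against RN, 2 in St1 against RN and 1 in St5 against St1. It also gave 1 in NSB, CLE and St1 against RN and St5. Batch 1 alone gave 3 in NSB against RN, 5 in St1 against RN and 2 in St5 against St1. Without background correction, and likewise with an offset of 100, there were 2 in St1 against RN and 1 in NSB, CLE and St1 against RN and St5. With no filter, and likewise with a detection p-value under 0.05, there were 2 in E9.5 CNH against NSB. The mean of a gene's probes gave 1 in E10.5 CNH against NSB.

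Without the 4 sparse arrays, chosen after seeing the data, counts were higher in several comparisons: 1 in PP against P, 1 in NSB against RN, 5 in St1 against RN, 2 in St5 against St1, 4 in NSB, CLE and St1 against RN and St5, 2 in NSB against E7.5 P, 4 in E9.5 CNH against NSB, 3 in late against early CNH and 2 in E11.5 P-CNH against CNH. By F tests there were 8 over the 16 regions, 5 over the E8.5 regions, 1 for the stage difference of P-CNH (Etv5, adjusted p 0.0466) and 1 for St5 against St1 set against PP and P (Fgfr2, adjusted p 0.0379). With detected probes as a covariate, also added, the counts were 1 in PP against P, 2 in St1 against RN, 1 in St5 against St1, 2 in NSB, CLE and St1 against RN and St5, 2 in NSB against E7.5 P, 2 in E9.5 CNH against NSB and 2 over the E8.5 regions.

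Leaving out 1 array at a time, counts ran from 3 to 6 in P against A, 0 to 1 in PP against P, 1 to 2 in St1 against RN, 0 to 1 in St5 against St1 and 0 to 1 in NSB, CLE and St1 against RN and St5. They ran from 0 to 2 in E9.5 CNH against NSB, 0 to 3 in E10.5 CNH against NSB, 6 to 7 over the 16 regions, 1 to 2 over the E8.5 regions and 3 to 5 over NSB and CNH stages. They stayed at 0 in NSB against RN, St5 against PP, each P-CNH against CNH and both stage differences, and at 1 in NSB against E7.5 P and in late against early CNH. In P against A, log2 differences ran from 1.19 to 1.72 for Dusp6, 0.67 to 1.41 for Spred1, 3.15 to 3.65 for Etv4 and 2.70 to 3.11 for Etv5. That of Il17rd was 1.52 at its smallest, and its largest is not given because most A arrays did not detect it. Fgfr2 ran from -3.45 to -3.11 in St1 against RN, -2.92 to -2.34 in E9.5 CNH against NSB and 3.19 to 3.57 in late against early CNH, and in E10.5 CNH against NSB it was -1.85 at its smallest. Dusp6 ran from 0.86 to 1.02 in E10.5 CNH against NSB, and Il17rd from 1.62 to 1.90 in NSB against E7.5 P. A lone array left in a region is assumed to vary like the other regions.

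With replicate number as a block, 5 members were called in P against A, 1 in St1 against RN, 1 in NSB against E7.5 P, 1 in E9.5 CNH and 2 in E10.5 CNH against NSB and 1 in late against early CNH, as without it. Correlations between arrays of the same number ran from -0.369 to 0.391, and over the whole series the numbers were taken to name pools only. The A and P pools numbered 1 held 9 pieces each and those numbered 2 held 13 each. The labels do not say whether they came from the same embryos. In batch 1 the number is also the BeadChip. A block by it there, added after seeing the data, gave 4 in NSB against RN, 5 in St1 against RN, 3 in St5 against St1 and 3 in E10.5 CNH against NSB.

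Comparisons between batch 1 and the others rest on NSB replicate 3 and could not be fitted without it. Fits on a single batch could not be made for comparisons reaching outside it. With 2 or 3 arrays a region, and signal over background as low as 2.28 in batch 2 and 2.33 in batch 3, differences of dim probes such as those of Spry4 and Fgfr1 have wide intervals, and no statement is made on Spry1 or Spry2.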
